A study of Mus musculus with 2 samples.

Results

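Oxidative phosphorylation is run by protein complexes of the inner mitochondrial membrane that are built from 2 genomes. Complexes I, III and IV pass electrons from NADH to oxygen and pump protons, and complex V, the ATP synthase, uses the proton gradient to make ATP. Most subunits are encoded in the nucleus and imported, while a small group of core membrane subunits is encoded on mitochondrial DNA (mtDNA), so the complexes need products of both. Neutrophils are textbook glycolytic cells with few mitochondria, and tissue macrophages are known for a larger mitochondrial content.

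The genes described here were taken by symbol: features starting with Ndufa, Ndufb, Ndufc, Ndufs, Ndufv, Uqcr, Cox4i, Cox5, Cox6, Cox7, Cox8 or Atp5, and the mt-Nd, mt-Co, mt-Atp and mt-Cytb genes, without Cox6a2 and symbols ending in -ps. The rule found 101 of the 32285 features. Of these, 88 are nuclear, with 36 subunits of complex I, 8 of complex III, 12 of complex IV and 17 of complex V, together with 7 tissue isoforms of complex IV and 8 Ndufaf assembly factors of complex I. The other 13 are mtDNA-encoded, with 7 genes of complex I, 1 of complex III, 3 of complex IV and 2 of complex V. Cox7b2 and Cox8c had 0 UMIs (molecules counted by their random tag) in the cells of both libraries, and the other nuclear genes were all detected.

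Immune cells (CD45+, collected with magnetic beads) came from hearts of wild-type male C57BL/6J mice aged 8 weeks. One library is from mice whose spleen had been removed (splenectomy) and one from mice given sham surgery, and the hearts of both had 60 min of coronary (LAD) occlusion followed by 24 h of reperfusion. There is 1 library per group, and the sources used here do not give the number of animals in each or when the spleen was removed. Differences between the libraries therefore have no replicate check, no p-value is given, and the 95% intervals printed here cover counting error only.

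The splenectomy library held 5087 cell barcodes and 48024013 UMIs, and the sham library 6210 barcodes and 53512625 UMIs. After filtering, 4801 splenectomy and 5835 sham cells were kept, and 9 barcodes occurred in both libraries. Cells were placed in classes by the UMIs of marker genes, which left 621 splenectomy and 878 sham cells without a class. Ptprc, the gene of CD45, had a UMI in 79.3% of splenectomy and 79.6% of sham cells. The neutrophil-like class held 1537 splenectomy and 2187 sham cells, the monocyte-like class 1664 and 1529, and the macrophage-like class 602 and 850. The classes are ranges of a marker score rather than separate types: the best score was under 1.5 times the next one in 240 splenectomy and 335 sham cells. Monocyte-like cells carried a median of 59 UMIs of macrophage markers in the splenectomy library and 53 in the sham library, against 311 and 294 in macrophage-like cells. Of 6 smaller classes, natural killer cell-like had the fewest splenectomy cells (25) and B cell-like the most (109). The nuclear and mtDNA sets were compared as shares of all UMIs of a class, or as counts scaled to 1000000 UMIs of that class (CPM). A 3' assay counts transcript ends, so these values were not divided by gene length, and a lower RNA content per cell cannot be told apart from a higher share of other transcripts.

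Of the 9 classes, neutrophil-like cells had the lowest share of both sets in each library. The nuclear set made up 0.647% of UMIs in splenectomy neutrophil-like cells (95% interval 0.641 to 0.653) and 0.700% in sham ones (0.695 to 0.706). It made up 2.31% in splenectomy and 2.40% in sham monocyte-like cells, and 2.10% in splenectomy and 2.25% in sham macrophage-like cells. The mtDNA set made up 0.253% of UMIs in splenectomy and 0.239% in sham neutrophil-like cells, 2.30% and 1.84% in monocyte-like cells, and 2.87% and 2.33% in macrophage-like cells. Neutrophil-like cells were thus far below the other large classes for both sets, and more so for the mtDNA set.

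The 6 smaller classes ranked differently for the 2 sets. Among them the highest nuclear share was in conventional dendritic cell-like cells, 2.28% in the splenectomy and 2.63% in the sham library, from 36 and 26 cells. The highest mtDNA share was in B cell-like cells, 3.56% in the splenectomy and 3.38% in the sham library. Nuclear shares of B cell-like cells were lower, 1.68% after splenectomy and 1.49% after sham surgery. The number of mtDNA UMIs for each nuclear UMI was accordingly 2.11 in splenectomy and 2.26 in sham B cell-like cells, the highest ratio of the 9 classes in both libraries. It was lowest in neutrophil-like cells, 0.392 in splenectomy and 0.341 in sham.

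**Figure D1:**
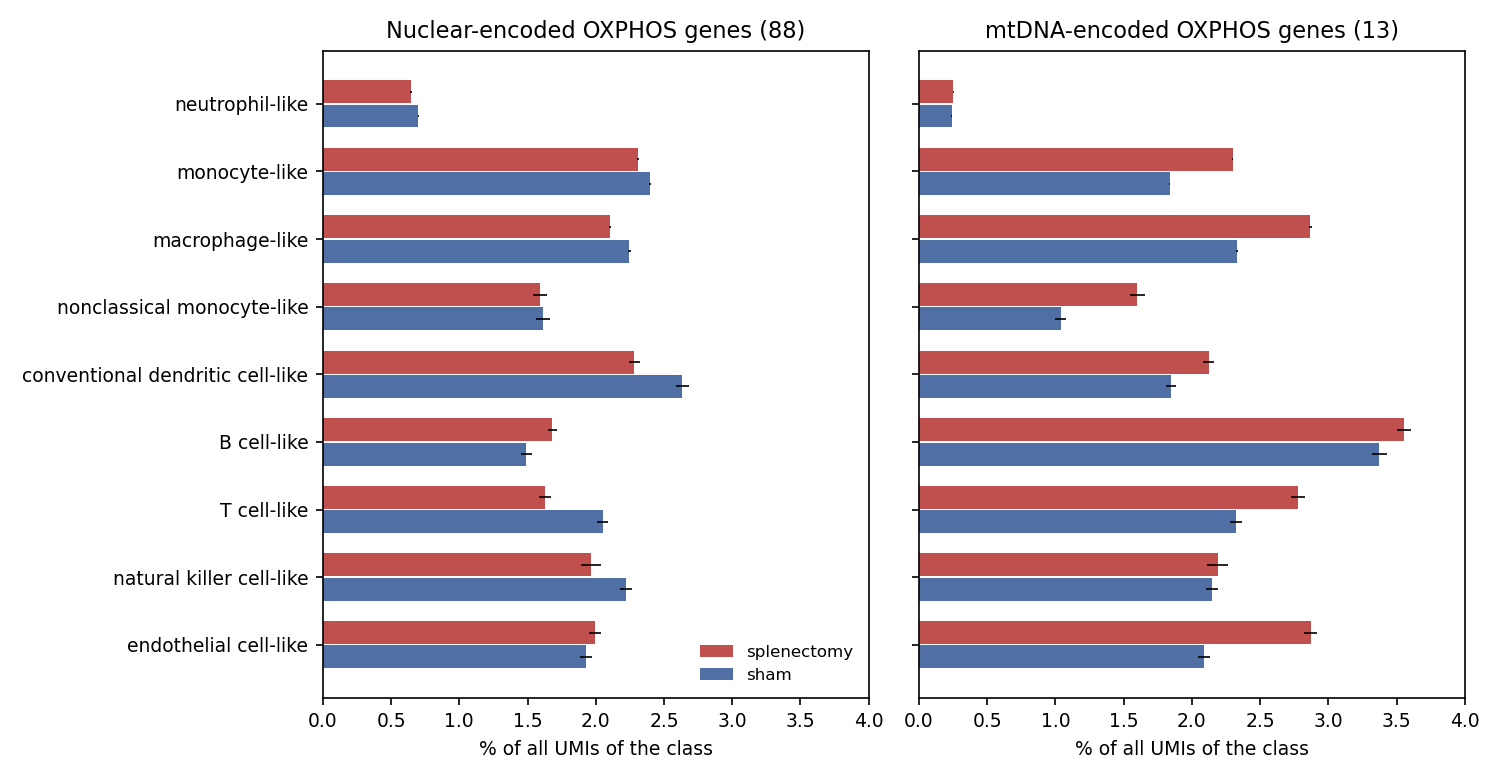
Bars show the share of all UMIs of a class, in percent, that fell on the 88 nuclear (left) and 13 mtDNA-encoded (right) oxidative phosphorylation genes, with splenectomy above sham in each class. Error bars are exact 95% intervals for counting error. Neutrophil-like cells sit at 0.647% (splenectomy) and 0.700% (sham) for the nuclear set, and the mtDNA bar is longer in the splenectomy library in each class.

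Per cell, the same order held at equal depth. In cells thinned to 1000 UMIs, splenectomy neutrophil-like cells had a median of 6 nuclear and 2 mtDNA UMIs, and sham ones 7 and 1. Monocyte-like cells had medians of 22 nuclear and 22 mtDNA UMIs after splenectomy, and 23 and 17 after sham surgery. Macrophage-like cells had 19 and 26 after splenectomy, and 20 and 19 after sham surgery. At this depth 1.19% of splenectomy and 1.58% of sham macrophage-like cells had 0 UMIs of the mtDNA set, against 24.0% of splenectomy and 27.0% of sham neutrophil-like cells. Thinning left out 44 splenectomy and 88 sham neutrophil-like cells, and 16 and 29 macrophage-like cells.

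Between macrophage-like and neutrophil-like cells, the nuclear set was 3.25-fold higher in macrophage-like cells of the splenectomy library (21044 against 6469 CPM) and 3.21-fold higher in those of the sham library (22462 against 7004). The mtDNA set was 11.3-fold higher in the splenectomy library (28678 against 2533 CPM) and 9.74-fold higher in the sham library (23288 against 2391). The distance between the 2 classes was therefore larger for the mtDNA set than for the nuclear set, in each library.

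The nuclear complexes did not all stand at the same distance. In log2 units of macrophage-like over neutrophil-like level, complex I stood at 1.89 in the splenectomy library (interval 1.86 to 1.93) and 1.84 in the sham library. Complex III stood at 1.90 in splenectomy and 1.81 in sham, and complex V at 1.79 in splenectomy and 1.72 in sham. Complex IV had the smallest distance, 1.39 in splenectomy (1.36 to 1.42) and 1.45 in sham (1.43 to 1.48). That distance depends on Cox8a, which held 858 of the 2247 nuclear complex IV CPM in splenectomy neutrophil-like cells and 789 of the 2283 in sham ones. In macrophage-like cells Cox8a held 764 of 5891 in splenectomy and 815 of 6244 in sham. The distance of complex IV without Cox8a is not given here. Of the nuclear genes with at least 50 UMIs in the higher class, 77 of 81 were at least 1.5-fold higher in macrophage-like cells of the splenectomy library and 78 of 82 in those of the sham library, where the shares of all genes tested were 58.8% and 57.6%. A single nuclear gene in each library was at least 1.5-fold lower, where 21.5% of all genes tested in the splenectomy library and 22.1% in the sham library were. All 13 mtDNA genes were at least 1.5-fold higher in both libraries. The median over nuclear genes was 2.22 in splenectomy and 2.01 in sham on the log2 scale, beside 1.05 and 0.98 over all genes tested. Genes rare in neutrophil-like cells could pass the limit of 50 UMIs only through macrophage-like cells, among nuclear genes and all genes tested alike.

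Within complex IV the smallest distance was that of Cox8a, the ubiquitous form of subunit 8. Cox8a had 764 CPM in macrophage-like and 858 in neutrophil-like cells of the splenectomy library, and 815 in macrophage-like and 789 in neutrophil-like cells of the sham library. Its log2 ratio was -0.17 in splenectomy (-0.22 to -0.11) and 0.05 in sham with an interval that reaches 0, so that it stood at about the same level where most of the set was several-fold apart. Cox8a alone held 3.63% of the nuclear set's UMIs in macrophage-like cells of either library, against 13.3% in splenectomy and 11.3% in sham neutrophil-like cells. In monocyte-like cells it held 4.14% after splenectomy and 4.18% after sham surgery. The nuclear set of neutrophil-like cells is thus weighted towards 1 gene in both libraries.

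Other genes with a small distance between the classes were Ndufa3 and Ndufa7, accessory subunits of complex I, and Atp5l, the g subunit of the ATP synthase membrane part. Ndufa3 had 167 CPM in macrophage-like and 126 in neutrophil-like cells of the splenectomy library, and 181 and 123 in the sham library. Ndufa7 had 255 against 171 in splenectomy and 282 against 177 in sham. Atp5l had 587 against 353 in splenectomy and 640 against 393 in sham. Ndufaf7, a methyltransferase needed for complex I assembly, was the gene at least 1.5-fold lower in macrophage-like cells of both libraries. It had 12.1 against 20.9 CPM in splenectomy and 9.98 against 15.7 in sham. Cox8a and these 4 genes were all less than 2-fold apart between the classes in both libraries.

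At the other end stood assembly factors and accessory subunits of complex I. Ndufaf2, an assembly factor, had 27.0 CPM in macrophage-like and 1.13 in neutrophil-like cells of the splenectomy library, and 29.9 and 0.764 in the sham library. Ndufaf4, another assembly factor, had 27.0 against 0.972 in splenectomy and 19.8 against 0.637 in sham. Their neutrophil-like values rest on 7 UMIs or fewer per library, which makes the size of these folds uncertain: the log2 interval of Ndufaf4 runs from 3.65 to 6.26 in splenectomy. Ndufa5, an accessory subunit of the matrix arm, rests on more UMIs, with 133 against 5.83 CPM in splenectomy and 143 against 4.71 in sham, a 22.8-fold and a 30.3-fold difference. Ndufc2 had 176 against 8.91 in splenectomy and 196 against 8.41 in sham. Ndufa11, an accessory subunit of the membrane arm, had 164 against 8.91 in splenectomy and 182 against 7.64 in sham. The genes of complex I thus ran from Ndufa3, within 1.5-fold in both libraries, to Ndufa5, over 20-fold apart.

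**Figure D2:**
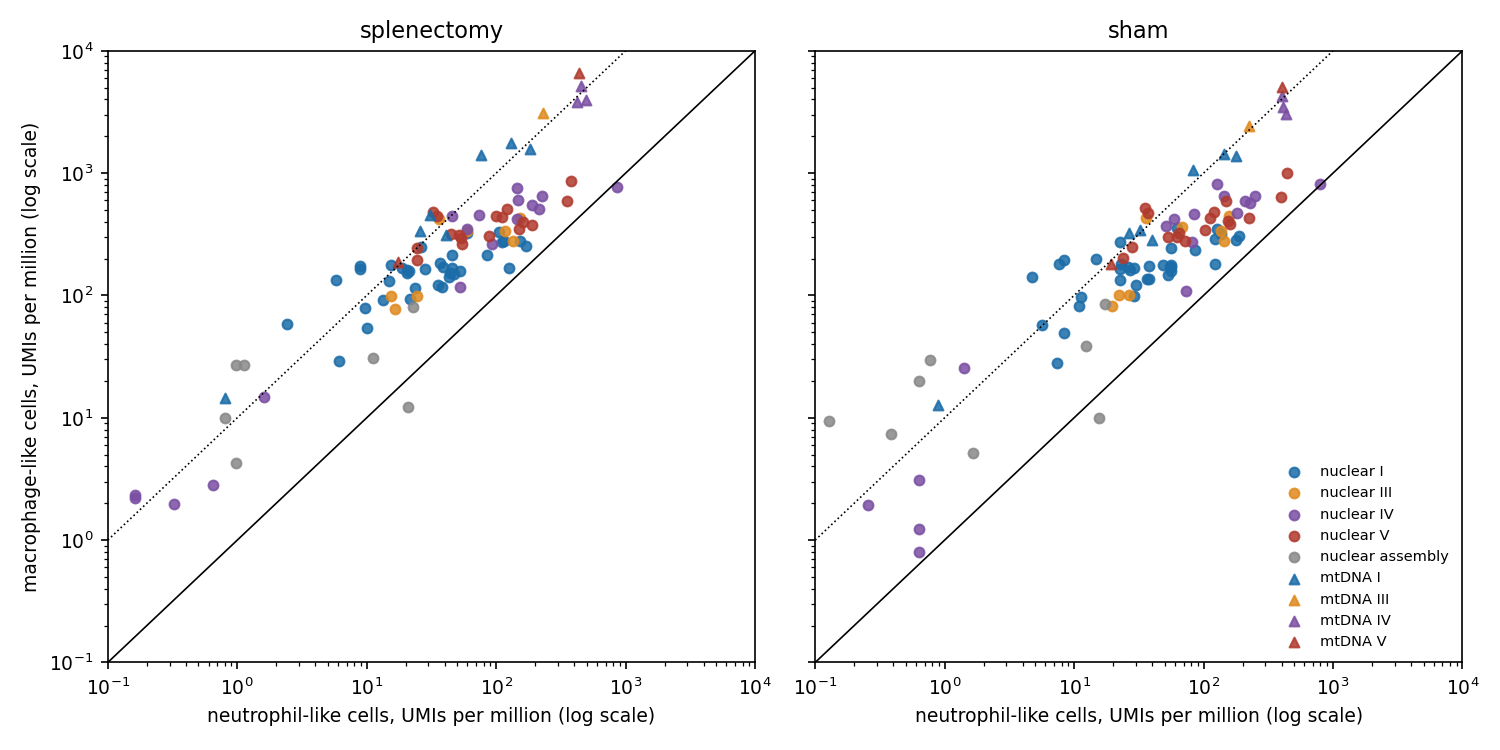
Each point is 1 gene, with its level in neutrophil-like cells on the x axis and in macrophage-like cells on the y axis, both in CPM on log scales, for the splenectomy (left) and sham (right) libraries. The solid line marks equal levels and the dotted line a 10-fold higher level in macrophage-like cells; genes at 0 in either class are not drawn. Cox8a lies close to the line of equal levels (764 against 858 in splenectomy), and the mtDNA genes (triangles) lie near the dotted line.

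Promoters are shown for 3 of the 5 genes with the largest and 2 of the 5 with the smallest distance between the classes, chosen after their matches had been seen. Windows of 250 bases before to 50 after the annotated start were available for 73 of the 88 nuclear genes (RefSeq, GRCm38.p6), as 78 windows. The capitals mark matches, on either strand, to the consensus of nuclear respiratory factor 1 (NRF1), to CCGGAAG, bound by ETS factors such as GABPA, to AAGATGGC, bound by YY1, to GGGCGG, bound by SP1, and to TATAAA, the TATA box, of which all but the last are known from promoters of respiratory chain genes.
Ndufa5, chr6:24527477-24527776, minus strand: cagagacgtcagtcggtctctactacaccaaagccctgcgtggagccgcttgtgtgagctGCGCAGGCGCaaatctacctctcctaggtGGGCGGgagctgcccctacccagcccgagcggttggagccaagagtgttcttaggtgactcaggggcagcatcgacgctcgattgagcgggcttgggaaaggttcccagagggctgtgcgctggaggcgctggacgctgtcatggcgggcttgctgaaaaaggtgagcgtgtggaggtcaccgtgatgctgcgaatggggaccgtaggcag
Ndufa11, chr17:56717512-56717811, plus strand: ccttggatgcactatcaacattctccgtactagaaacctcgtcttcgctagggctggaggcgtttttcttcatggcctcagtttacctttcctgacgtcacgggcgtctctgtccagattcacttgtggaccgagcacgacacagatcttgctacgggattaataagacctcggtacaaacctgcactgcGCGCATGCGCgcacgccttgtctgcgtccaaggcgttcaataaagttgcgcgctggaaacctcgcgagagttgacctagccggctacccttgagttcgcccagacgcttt
Ndufaf4, chr4:24897833-24898132, plus strand: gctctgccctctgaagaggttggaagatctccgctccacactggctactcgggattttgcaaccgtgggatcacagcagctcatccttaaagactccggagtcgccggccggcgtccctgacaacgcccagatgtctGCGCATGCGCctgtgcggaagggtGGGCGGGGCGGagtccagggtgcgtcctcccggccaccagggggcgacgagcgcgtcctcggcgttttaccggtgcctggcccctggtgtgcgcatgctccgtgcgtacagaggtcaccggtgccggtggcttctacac
Cox8a, chr19:7217567-7217866, minus strand: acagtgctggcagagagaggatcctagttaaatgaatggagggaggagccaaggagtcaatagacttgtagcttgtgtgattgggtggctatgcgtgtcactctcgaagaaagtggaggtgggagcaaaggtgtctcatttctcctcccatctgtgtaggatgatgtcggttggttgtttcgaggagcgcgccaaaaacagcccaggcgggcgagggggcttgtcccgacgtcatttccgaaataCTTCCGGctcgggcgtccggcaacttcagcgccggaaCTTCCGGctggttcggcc
Ndufa3, chr7:3617123-3617422, plus strand: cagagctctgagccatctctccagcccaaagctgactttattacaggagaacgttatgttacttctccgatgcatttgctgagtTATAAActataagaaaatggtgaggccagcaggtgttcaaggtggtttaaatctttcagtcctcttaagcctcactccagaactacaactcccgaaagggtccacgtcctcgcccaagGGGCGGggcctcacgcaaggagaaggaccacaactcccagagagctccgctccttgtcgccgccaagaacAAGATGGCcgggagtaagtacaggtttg
The windows of Ndufa5, Ndufa11 and Ndufaf4, all of the large-distance end, each hold 1 match to the NRF1 letters. Ndufa5 also has 1 match to the SP1 letters, and Ndufaf4 has 2 that overlap each other. The windows of Ndufaf2 and Ndufc2, from the same end, hold no NRF1 match, nor do those of the 5 genes with the smallest distance. The window of Cox8a holds 2 matches to the ETS letters and that of Ndufa3 1 match each to the YY1, SP1 and TATA letters. Over all 78 windows, the NRF1 letters stood in 18 (23.1%), against 4.60% of the 32851 windows of all genes. The ETS letters stood in 21.8% of the members' windows and 8.86% of all windows, and the YY1 letters in 14.1% and 2.75%. The SP1 letters stood in 43.6% and 35.7%, and the TATA letters in 11.5% and 13.6%. The members' windows had a median of 57.5% G and C, against 52.7% over all windows, and a match is a description of letters, not of a bound site.

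Among the mtDNA genes, the distance between macrophage-like and neutrophil-like cells ran from 2.94 (mt-Nd5) to 4.20 (mt-Nd1) in the splenectomy library and from 2.82 (mt-Co3) to 3.82 (mt-Nd6) in the sham library, on the log2 scale. mt-Nd1, a core subunit of complex I's membrane arm, had 1399 CPM in macrophage-like and 76.3 in neutrophil-like cells of the splenectomy library, and 1050 and 82.3 in the sham library. mt-Co3, a core subunit of complex IV, had 3831 against 422 in splenectomy and 3045 against 431 in sham. mt-Nd6 is encoded on the other strand from the rest and had 14.5 against 0.810 in splenectomy and 12.6 against 0.892 in sham, from 5 and 7 UMIs in the neutrophil-like cells of the splenectomy and sham libraries. mt-Atp8 overlaps mt-Atp6 and mt-Nd4l overlaps mt-Nd4 on the mtDNA, so that reads of these pairs may be shared between them.

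The make-up of the mtDNA set also differed between the classes. mt-Atp6, the proton channel subunit of complex V, held 23.1% of the mtDNA set in splenectomy and 21.9% in sham macrophage-like cells, and 25.9% (splenectomy) and 25.4% (sham) in B cell-like cells, against 17.1% in splenectomy and 16.8% in sham neutrophil-like cells. mt-Co1, mt-Co2 and mt-Co3, the 3 core subunits of complex IV, held 13.7%, 18.0% and 13.4% in splenectomy macrophage-like cells, against 19.5%, 17.7% and 16.6% in splenectomy neutrophil-like cells. In sham cells the same 3 genes held 14.9%, 18.2% and 13.1% in macrophage-like cells, against 17.0%, 16.9% and 18.0% in neutrophil-like cells. In both libraries mt-Co1 and mt-Co3 thus took a larger share of the set in neutrophil-like cells, mt-Co2 a slightly smaller one and mt-Atp6 a smaller one.

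Between the libraries, the 2 sets stood apart in opposite directions in monocyte-like and macrophage-like cells. The mtDNA set was higher in the splenectomy library, with a log2 ratio over sham of 0.32 (interval 0.317 to 0.329) in monocyte-like and 0.30 (0.292 to 0.308) in macrophage-like cells. The nuclear set was slightly lower in it, with log2 ratios of -0.05 (-0.060 to -0.049) and -0.09 (-0.103 to -0.085). In monocyte-like cells markers of other types stood apart as well: the 12 neutrophil markers summed to 2592 CPM in splenectomy and 930 in sham, and the 16 macrophage markers to 8989 and 7748. In macrophage-like cells the neutrophil markers summed to 610 CPM in splenectomy and 669 in sham. The part of these RNAs in the ratios was not tested. The number of mtDNA UMIs for each nuclear UMI was 0.996 in splenectomy and 0.766 in sham monocyte-like cells, and 1.36 in splenectomy and 1.04 in sham macrophage-like cells. In neutrophil-like cells the nuclear set stood at -0.11 (-0.133 to -0.096) and the mtDNA set at 0.08 (0.053 to 0.114). That mtDNA value turned to -0.069 without the limit of 20% on mitochondrial UMIs per cell, which added 0 splenectomy and 2 sham neutrophil-like barcodes, those 2 with 2116 mtDNA UMIs beside 18762 in the sham cells kept. It was 0.22 with doublets kept.

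The mtDNA set was also the higher one after splenectomy in the smaller classes, by log2 ratios of 0.62 in nonclassical monocyte-like (33 splenectomy and 40 sham cells), 0.20 in conventional dendritic cell-like, 0.08 in B cell-like, 0.26 in T cell-like and 0.46 in endothelial cell-like cells. In natural killer cell-like cells its ratio of 0.03 had an interval that spans 0 (-0.033 to 0.087). The nuclear set was lower after splenectomy in T cell-like (-0.33), conventional dendritic cell-like (-0.21) and natural killer cell-like cells (-0.18). Summed over cells, it was higher in B cell-like cells (0.17) and endothelial cell-like cells (0.05). The median share per cell did not follow: it was 1.43% in B cell-like cells of both libraries. In endothelial cell-like cells the median was 1.71% in splenectomy and 1.81% in sham. The interval of the nuclear set spans 0 in nonclassical monocyte-like cells (-0.087 to 0.047). In nonclassical monocyte-like cells the 12 neutrophil markers summed to 979 CPM in splenectomy and 3116 in sham, and the 16 macrophage markers to 5045 and 2731, and their part in the ratio was not tested. A shift of the mtDNA set that is shared by most classes of a library cannot be told apart here from a property of that library, since each group has 1 library.

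Gene by gene, the nuclear shift was small and spread over the complexes. In monocyte-like cells 63 of 84 nuclear genes with at least 50 UMIs were below 0 on the log2 scale, in macrophage-like cells 69 of 82, and in neutrophil-like cells 56 of 74. Of all genes tested, 50.1% were below 0 in monocyte-like, 49.1% in macrophage-like and 61.4% in neutrophil-like cells. The median nuclear log2 ratio was -0.05 in monocyte-like, -0.09 in macrophage-like and -0.15 in neutrophil-like cells, beside medians over all genes tested of -0.001, 0.005 and -0.08. By complex, macrophage-like cells stood at -0.11 for complexes I and V, -0.05 for complex III and -0.08 for complex IV. In neutrophil-like cells complex I stood at -0.17, complex III at -0.13 and complex V at -0.18, and complex IV at -0.02 with an interval that spans 0 (-0.055 to 0.009). The complex IV value includes Cox8a, which held 858 of its 2247 CPM in splenectomy and 789 of 2283 in sham. The 12 neutrophil markers used for the classes summed to 150355 CPM in splenectomy and 119066 in sham neutrophil-like cells, and their part in the nuclear shift was not tested. With the 20 most abundant nuclear genes left out of the UMI total, the set's ratio was -0.08.

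In the 3 large classes, few nuclear genes differed by 1.5-fold or more between the libraries. In neutrophil-like cells 0 of 74 were higher and 1 was lower, where 3.22% of all genes tested were higher and 7.19% lower. In monocyte-like cells 1 of 84 was higher and 0 were lower, where the shares of all genes were 2.60% and 3.60%. In macrophage-like cells 0 of 82 were higher and 1 was lower, where they were 2.42% and 2.50%. None of the mtDNA genes reached 1.5-fold in these classes. Among the smaller classes, T cell-like cells had the most nuclear genes past it, 13 of 57 lower, where 213 of 1124 of all genes tested were. Nonclassical monocyte-like cells had the most mtDNA genes past it, 6 of 9 higher, where 63 of 776 of all genes tested were.

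The gene past that size in neutrophil-like cells was Ndufv2, the iron-sulphur subunit of complex I's NADH-binding module, with 14.7 CPM in splenectomy and 22.4 in sham cells (log2 ratio -0.60, interval -0.99 to -0.23, from 91 and 176 UMIs). Next were Uqcrc1, a core subunit of complex III, at 15.4 against 22.3, and Ndufb2, a membrane-arm accessory subunit of complex I, at 20.4 against 29.1. The highest in these cells were the assembly factors Ndufaf7, at 20.9 against 15.7, and Ndufaf8, at 22.7 against 17.2, and the accessory subunit Ndufc1, at 26.3 against 22.7, the last with an interval that spans 0. Cox8a stood at 858 in splenectomy and 789 in sham neutrophil-like cells (log2 ratio 0.12, interval 0.07 to 0.17), against the direction of the nuclear set.

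In monocyte-like cells the gene past 1.5-fold was Cox6b2, an isoform of complex IV best known from testis, with 94 UMIs (4.18 CPM) in splenectomy and 45 (2.24 CPM) in sham cells. It is a low count that 81 of 1664 splenectomy and 41 of 1529 sham cells carried. Among genes with at least 100 UMIs, the lowest were the assembly factor Ndufaf3 at 27.6 CPM in splenectomy against 34.5 in sham, Ndufs7, a core iron-sulphur subunit of complex I, at 99.5 against 118, and Cox7a1 at 7.83 against 9.27, the last with an interval that spans 0. The highest were Ndufaf4 at 19.4 against 15.8, Ndufv1, the flavin-binding core subunit of complex I, at 50.4 against 46.0, and Atp5b, the catalytic beta subunit of complex V, at 432 against 402. In macrophage-like cells the highest were Ndufaf4 at 27.0 against 19.8, Ndufaf7 at 12.1 against 9.98 and Ndufv1 at 53.8 against 49.1, the last 2 with intervals that span 0.

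In macrophage-like cells the gene past 1.5-fold was Cox7a1, the heart and muscle isoform of the complex IV subunit 7a. It had 121 UMIs, 14.8 CPM, in splenectomy cells and 291 UMIs, 25.7 CPM, in sham cells, a log2 ratio of -0.79 (-1.11 to -0.48). A UMI of it was found in 16.9% of splenectomy (102 of 602) and 24.6% of sham (209 of 850) macrophage-like cells, at median depths of 12379 and 12474.5 UMIs. In monocyte-like cells it was found in 8.83% of splenectomy and 10.3% of sham cells, at median depths of 12955.5 and 12881 UMIs. In neutrophil-like cells it was found in 0.651% and 0.457%, at the lower depths of 3780 and 3348 UMIs. The 12 cardiomyocyte markers summed to 113 CPM in macrophage-like cells of both libraries. In macrophage-like cells with a UMI of these markers Cox7a1 stood at 18.0 CPM in splenectomy and 29.3 in sham, and in those without at 11.9 in splenectomy and 23.3 in sham. Monocyte-like cells with such a UMI had 12.6 in splenectomy and 15.8 in sham, against 7.21 and 8.56 in those without. Neutrophil-like cells with one had 3.83 and 11.2, against 1.42 and 0.684 in those without, from 8 UMIs or fewer each. Cox7a1 was thus higher beside cardiomyocyte marker UMIs in each class and library, and lower in splenectomy than in sham macrophage-like cells with and without them. The part of heart muscle RNA in its level was not tested. In macrophage-like cells with at least 5 UMIs per 10000 of Lyve1, Folr2, Cbr2 and Cd163, genes of resident macrophages, it had 12.8 in splenectomy and 26.9 in sham (log2 -1.06, -1.61 to -0.53), and in the rest 16.3 and 25.2 (-0.63, -1.03 to -0.24). Next lowest in the class were Ndufaf3, at 30.9 against 38.7, and Atp5j2, a membrane subunit of complex V, at 506 against 589.

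**Figure D3:**
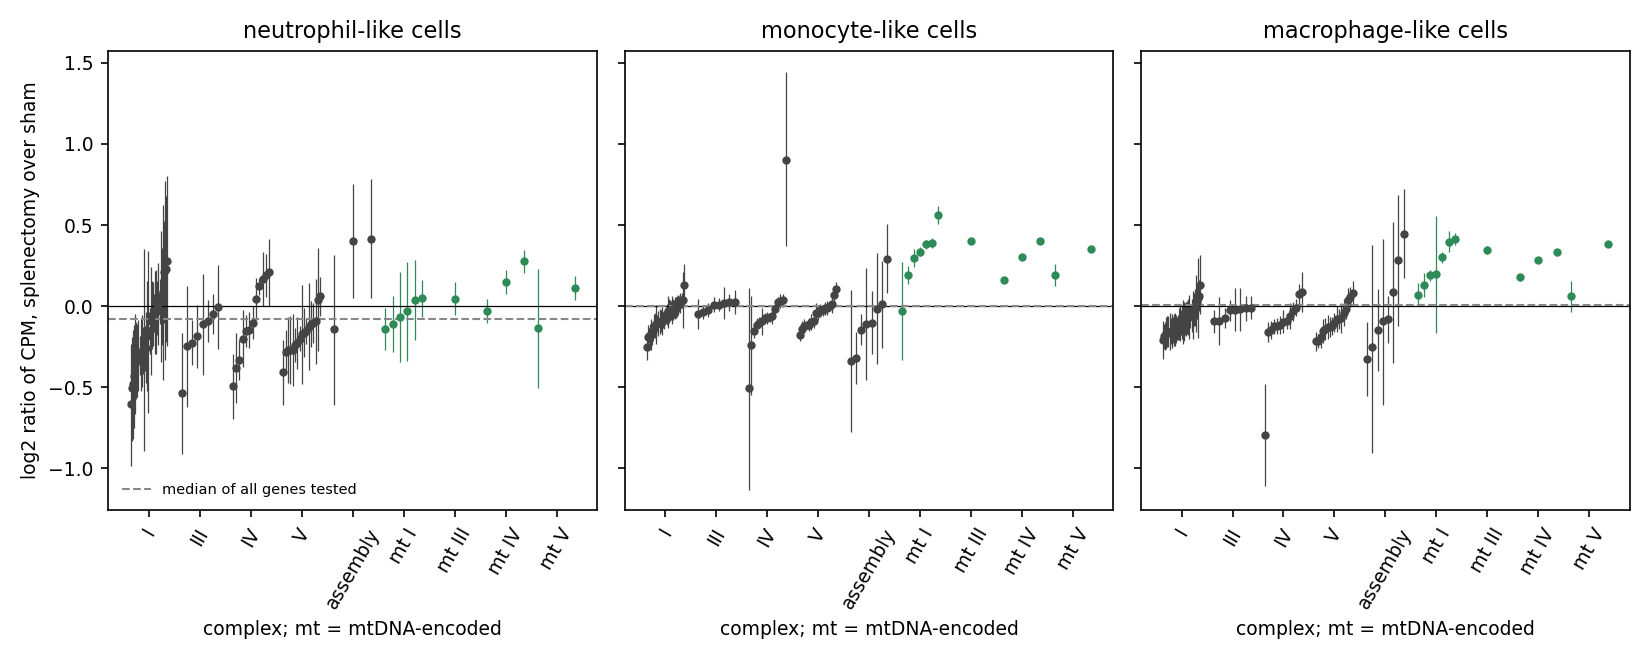
Points are log2 ratios of CPM, splenectomy over sham, for single genes with at least 50 UMIs in the higher library, with exact 95% intervals for counting error, in 3 cell classes. Genes are grouped by complex on the x axis, nuclear in grey and mtDNA-encoded (mt) in green, and the dashed line is the median of all genes tested. The mtDNA genes of macrophage-like cells lie between 0.06 and 0.41, above most nuclear genes, and the low point of complex IV is Cox7a1 at -0.79.

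The most abundant genes of each complex by UMIs were all slightly lower in splenectomy macrophage-like cells. Atp5e, the epsilon subunit of complex V, had 868 CPM in splenectomy and 1009 in sham macrophage-like cells, and Atp5l 587 and 640. Cox7c of complex IV had 752 in splenectomy and 821 in sham. Uqcrq and Uqcrb of complex III had 427 and 423 in splenectomy, and 450 and 431 in sham. Ndufa2 and Ndufa13 of complex I had 331 and 277 in splenectomy, and 346 and 315 in sham. Ndufaf8, the most abundant assembly factor, had 80.2 in splenectomy and 84.9 in sham. The intervals of Uqcrb, Ndufa2 and Ndufaf8 span 0.

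Of the mtDNA genes, 12 of 13 were higher in splenectomy monocyte-like cells and 13 of 13 in splenectomy macrophage-like cells, and 6 of 12 in neutrophil-like cells. Of all genes tested, 49.9% were higher in splenectomy monocyte-like, 50.9% in macrophage-like and 38.6% in neutrophil-like cells. In macrophage-like cells mt-Nd1 had the highest log2 ratio, 0.41 (0.38 to 0.45), at 1399 CPM in splenectomy and 1050 in sham. mt-Nd3 stood at 0.40, mt-Atp6 at 0.38, mt-Cytb, the mtDNA subunit of complex III, at 0.34, and mt-Co3 at 0.33. mt-Nd2 and mt-Co2 stood at 0.30 and 0.28, mt-Nd4 at 0.19, mt-Co1 at 0.18 and mt-Nd5 at 0.13. The intervals of mt-Nd6 (0.20), mt-Nd4l (0.07) and mt-Atp8 (0.06) span 0. In monocyte-like cells the ratios ran from -0.03 for mt-Nd6, the one gene that was not higher, through 0.16 for mt-Co1 to 0.56 for mt-Nd3, at 321 CPM in splenectomy and 217 in sham. mt-Co1 was thus among the least different in both classes, while in neutrophil-like cells it had the highest ratio of the set, 0.28 (0.20 to 0.35), at 493 in splenectomy and 407 in sham.

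**Figure D4:**
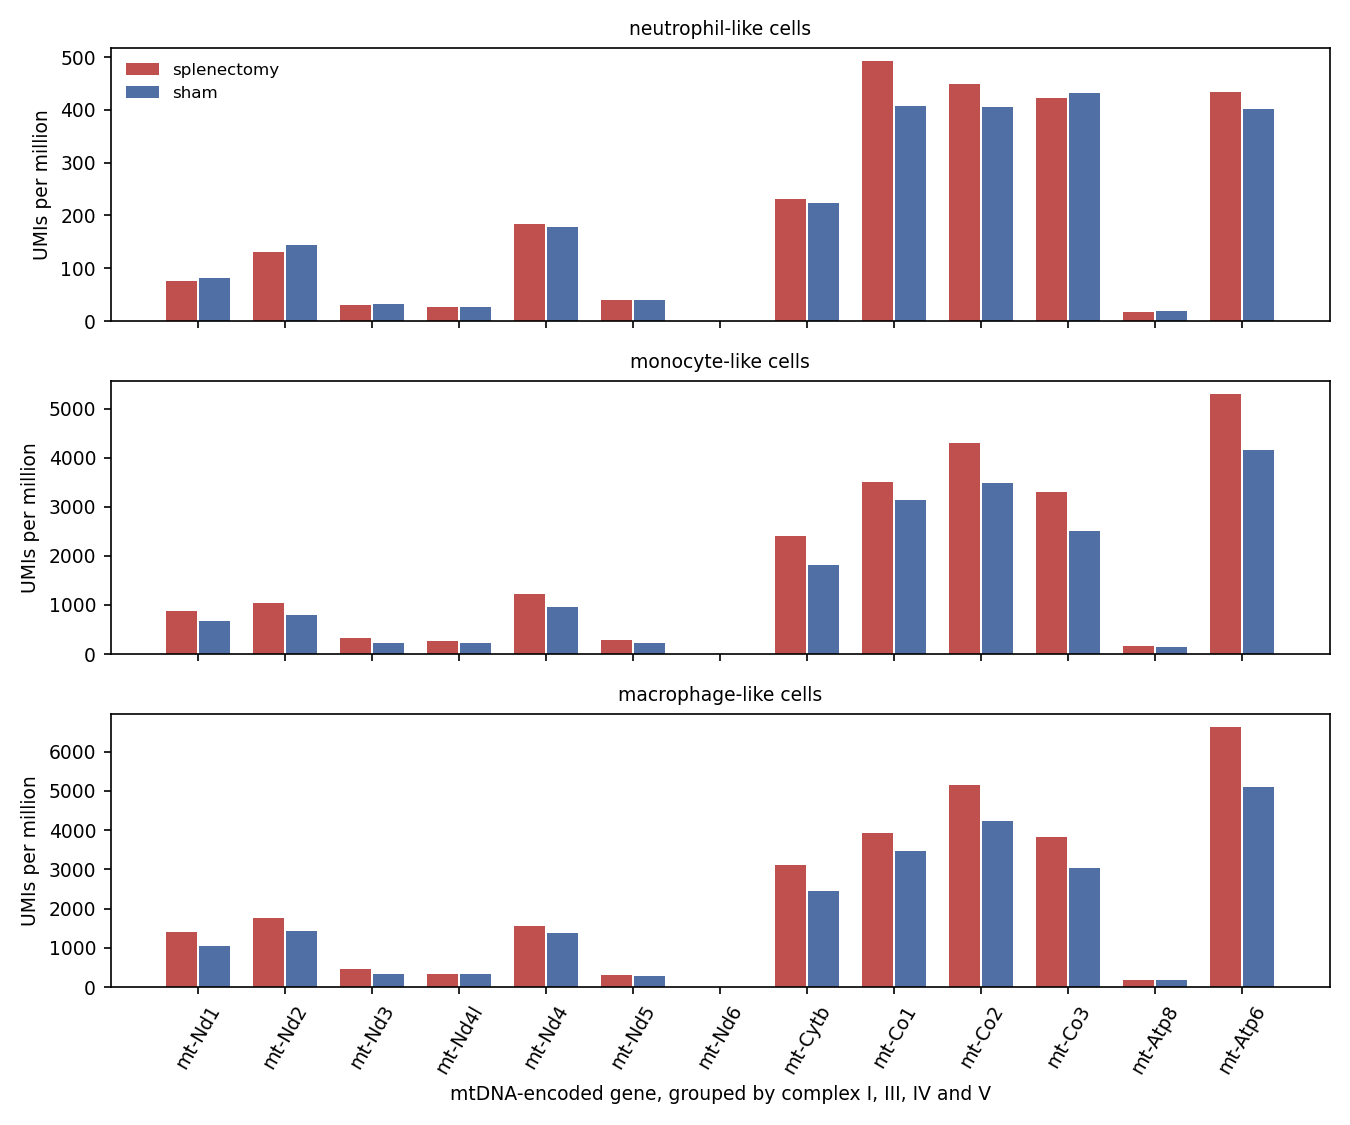
Bars give the level of the 13 mtDNA-encoded genes in CPM, splenectomy left of sham, in 3 panels for neutrophil-like, monocyte-like or macrophage-like cells, each with its own y axis. In monocyte-like and macrophage-like cells the splenectomy bar is higher for the well-counted genes, for example mt-Atp6 at 6631 against 5093 in macrophage-like cells, and in neutrophil-like cells mt-Co1 differs most (493 against 407).

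Depth and cell state were looked at beside the shift. When cells of both libraries were split into 4 groups by UMIs per cell, the mtDNA log2 ratio lay between 0.30 and 0.37 in the 4 groups of monocyte-like cells and between 0.19 and 0.44 in those of macrophage-like cells. In neutrophil-like cells it was 0.29 in the shallowest group and 0.001, 0.01 and 0.10 in the others. The nuclear log2 ratio lay between -0.08 and -0.03 in the 4 groups of monocyte-like cells. In macrophage-like cells it was 0.04 in the shallowest group, against the direction of the class, and -0.08, -0.10 and -0.11 in the others. In neutrophil-like cells it was -0.07, -0.08, -0.006 and -0.16 from the shallowest to the deepest group. The macrophage-like cells of fewest UMIs had the highest mtDNA share, 4.06% in splenectomy and 3.12% in sham, and the lowest nuclear share, 1.52% and 1.47%. In the group of most UMIs the mtDNA share was 2.58% in splenectomy and 2.16% in sham, and the nuclear share 2.28% and 2.47%. The nuclear share was thus higher and the mtDNA share lower in the deepest than in the shallowest macrophage-like cells of both libraries.

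**Figure D5:**
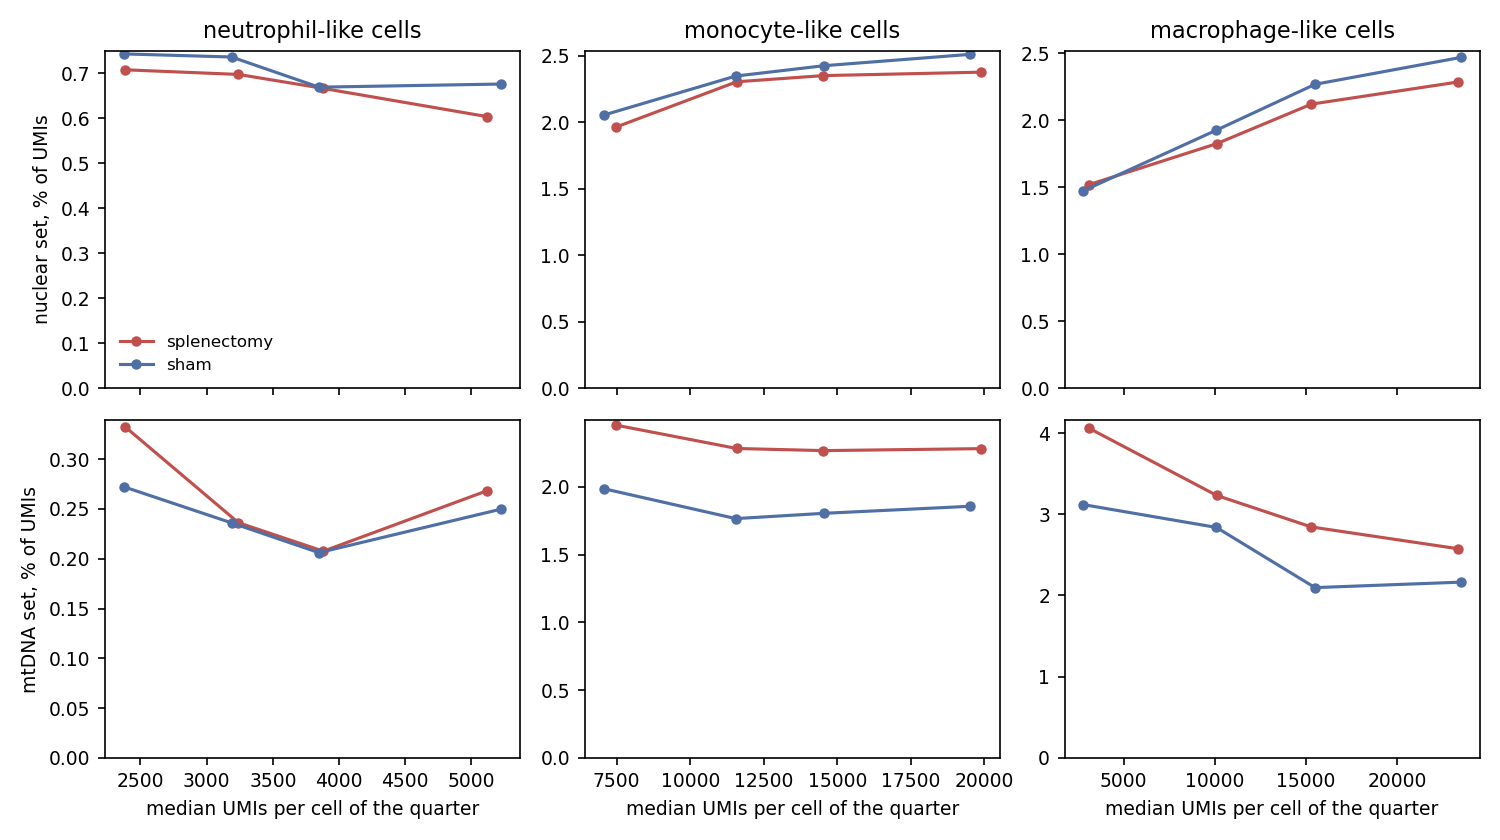
Points show the nuclear set (top row) and the mtDNA set (bottom row) as a percentage of UMIs in 4 groups of cells by UMIs per cell, against the median UMIs per cell of the group, for splenectomy (red) and sham (blue). In macrophage-like cells the nuclear share is higher and the mtDNA share lower in the deepest than in the shallowest group (mtDNA 2.58% against 4.06% in splenectomy), and the splenectomy line for mtDNA lies above the sham line throughout.

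Among macrophage-like cells, those with at least 5 UMIs per 10000 of the resident markers made up 41.2% of the class in splenectomy and 30.4% in sham. Their mtDNA share was 3.37% in splenectomy and 2.98% in sham, against 2.49% and 2.05% in the other macrophage-like cells. Within both macrophage-like states the mtDNA set was higher after splenectomy. In monocyte-like cells with at least 5 UMIs per 10000 of Ly6c2 and Chil3, genes of classical monocytes, the mtDNA share was 2.31% in splenectomy and 1.85% in sham, close to 2.27% and 1.80% in the others. Neutrophil-like cells with at least 5 UMIs per 10000 of Retnlg, Mmp8 and Stfa2l1 made up 56.2% of the class in splenectomy and 38.7% in sham. Their nuclear share was 0.606% in splenectomy and 0.657% in sham, against 0.708% and 0.731% in the other neutrophil-like cells. Their mtDNA share was 0.260% in splenectomy and 0.229% in sham. That of the other neutrophil-like cells was 0.243% and 0.246%, with intervals that overlap, so no direction between the libraries is read from it. Cells with these markers thus had the higher mtDNA share of the 2 neutrophil-like states in splenectomy and the lower one in sham. These states were chosen after the values had been seen.

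RNA of heart muscle cells, which are rich in mitochondria, is a further measure to set beside the mtDNA set. A UMI of the 12 cardiomyocyte markers was found in 41.7% of splenectomy and 39.3% of sham macrophage-like cells, 10.7% and 8.63% of monocyte-like cells and 7.48% and 6.08% of neutrophil-like cells. The mtDNA share was 3.26% in splenectomy and 3.0% in sham macrophage-like cells with such a UMI, and 2.51% and 1.87% in those without. Without these cells the log2 ratio of splenectomy over sham for the mtDNA set was 0.43 in macrophage-like, 0.31 in monocyte-like and 0.10 in neutrophil-like cells, against 0.30, 0.32 and 0.08 with them. Macrophage-like over neutrophil-like cells, the mtDNA set stood at 3.33 in splenectomy and 3.0 in sham without them, against 3.50 and 3.28 with them.

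The other tissue isoforms had low counts in immune cells. Cox8b, the muscle form of subunit 8, had 19 UMIs in splenectomy and 35 in sham macrophage-like cells, of which 18 and 31 lay in cells that also had a cardiomyocyte marker UMI. Cox4i2, an isoform of subunit 4 known from lung and from pericytes, had 48 UMIs in splenectomy and 8 in sham endothelial cell-like cells. Ndufa4l2, a paralogue of Ndufa4 that is also known from pericytes, had 55 and 20 there. All 48 and 8 Cox4i2 UMIs, and 55 of 55 and 19 of 20 Ndufa4l2 UMIs, were in the 11 splenectomy and 5 sham cells with at least 3 UMIs of 8 pericyte genes such as Rgs5 and Kcnj8, a list chosen after these values had been seen. Cox4i2 was found in 6 splenectomy and 2 sham cells, and Ndufa4l2 in 4 and 2. A single cell held 24 of the 48 and 7 of the 8 Cox4i2 UMIs, and 23 of the 55 and 19 of the 20 Ndufa4l2 UMIs. The differences between the libraries in these 2 genes thus rest on very few cells. These genes thus marked a few cells with pericyte genes inside the endothelial cell-like class, in which Ptprc had a UMI in 4.05% of splenectomy and 5.0% of sham cells. The isoforms of the complex V c ring, which give the same mature protein, split differently: Atp5g1 held 41.3% of the c ring UMIs in splenectomy and 42.0% in sham macrophage-like cells, and Atp5g2 38.0% and 37.9%, whereas Atp5g2 held the largest part in lymphocyte classes. It held 53.8% in splenectomy and 51.0% in sham B cell-like cells, 49.9% and 47.8% in T cell-like cells, and 51.6% and 44.5% in natural killer cell-like cells. This was not particular to lymphocytes. Atp5g2 was also the largest part in nonclassical monocyte-like cells, 40.2% in splenectomy and 43.5% in sham. In neutrophil-like cells it held 37.9% and 37.1%, with intervals that overlap those of Atp5g1. Cox7a2l held 49.6% of its UMIs summed with Cox7a2 in splenectomy and 51.8% in sham B cell-like cells, and 57.6% and 48.4% in T cell-like cells. It held 37.5% and 35.4% in natural killer cell-like cells, against 21.7% and 18.9% in macrophage-like cells. Its part in nonclassical monocyte-like cells, 38.7% in splenectomy and 43.7% in sham, was near that in natural killer cell-like cells.

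Most genes outside the rule that serve the same pathway were also at least 1.5-fold higher in macrophage-like than in neutrophil-like cells, where 58.8% of all genes tested in splenectomy and 57.6% in sham were. This held in each library for all 6 genes of a list made up of complex II, Cyc1 and Cycs. Cyc1 encodes cytochrome c1, a core subunit of complex III that the symbol rule does not take in. Cycs, the soluble electron carrier cytochrome c, had 311 against 54.9 CPM in splenectomy and 351 against 57.1 in sham. Of 14 enzymes of the TCA cycle 13 were higher in splenectomy and 12 in sham, and of the 29 assembly factors outside the rule 20 of 25 with enough UMIs in splenectomy and 23 of 29 in sham. Enough UMIs means at least 50 in the higher class, so genes rare in neutrophil-like cells entered these counts only through macrophage-like cells. Cox10, with 0 splenectomy and 1 sham neutrophil-like UMIs, and Ecsit, with 3 and 5, are examples. A count of 0 was set to 3 for the ratio. One assembly factor was lower in each library, Cox17, a copper carrier of complex IV, at 288 against 537 CPM in splenectomy and 330 against 533 in sham. All 8 genes of a mixed mitochondrial list (Ucp2, Slc25a3, Slc25a4, Slc25a5, Vdac1, Vdac2, Vdac3 and Atpif1) were higher in both libraries. So were 8 of the 10 genes with enough UMIs from a list of 16 for mtDNA expression, with 2 lower. Over all genes tested, 21.5% were lower in splenectomy and 22.1% in sham. Regulators stood apart from this: of 8 with enough UMIs, 2 were higher and 2 lower in either library. The higher ones were Nfe2l1, at 64.1 against 26.4 CPM in splenectomy and 68.2 against 29.4 in sham, and Pprc1, at 12.9 against 0.648 and 13.6 against 0.637. The Pprc1 values in neutrophil-like cells are 4 and 5 UMIs. The lower ones were Gabpb1, the partner of the ETS factor GABPA, at 15.3 against 60.3 in splenectomy and 14.6 against 62.4 in sham, and Ppard, at 17.2 against 36.1 and 17.8 against 34.4. Nrf1, a nuclear activator of respiratory genes, was within 1.5-fold, at 15.7 against 18.0 in splenectomy and 17.7 against 20.9 in sham. Of the genes that express mtDNA, Lrpprc, which stabilises mtDNA transcripts, had 24.9 against 0.324 CPM in splenectomy and 21.3 against 0.382 in sham, and Slirp, its partner, 104 against 6.16 in splenectomy and 122 against 7.01 in sham. The Lrpprc values in neutrophil-like cells are 2 and 3 UMIs. Polg, the mtDNA polymerase, was lower in macrophage-like cells, with log2 ratios of -0.85 in splenectomy and -0.84 in sham.

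Between the libraries few genes of these lists passed 1.5-fold. Of all genes tested, 3.22% were at least 1.5-fold higher and 7.19% lower in splenectomy neutrophil-like cells. These shares were 2.60% and 3.60% in monocyte-like cells, and 2.42% and 2.50% in macrophage-like cells. The list for mtDNA expression stood at a median of 0.08 (log2) in monocyte-like and 0.17 in macrophage-like cells, with 0 genes past 1.5-fold in either direction. The TCA cycle list had 0.06 and 0.10, and the list of complex II, Cyc1 and Cycs -0.02 and 0.002. The assembly factors outside the rule had -0.16 and -0.08, the regulators 0.09 and -0.08, and the mixed mitochondrial list 0.01 and 0.03. Of the assembly factors, 1 was at least 1.5-fold lower in monocyte-like cells, Cox15, at 2.45 CPM in splenectomy and 4.38 in sham. In macrophage-like cells 1 was, Sco1, at 3.31 in splenectomy and 5.21 in sham, with an interval that spans 0. In neutrophil-like cells the medians were -0.06 for the list of complex II, Cyc1 and Cycs, -0.13 for the TCA cycle, -0.02 for the assembly factors, 0.06 for mtDNA expression, -0.13 for the regulators and -0.17 for the mixed mitochondrial list, beside -0.08 over all genes. There Cyc1 was the 1 gene at least 1.5-fold higher, at 12.5 CPM in splenectomy and 8.28 in sham, and Sucla2 of the TCA cycle the 1 gene lower, at 4.05 and 6.88. Ppargc1a, a co-activator of mitochondrial genes, had 0 UMIs in neutrophil-like cells of either library.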

How the data were processed

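Single-cell RNA of 2 libraries (Chromium 3' v3) was used as deposited: whole-number UMI counts per gene and cell, made with Cell Ranger 5.0.0 per the file headers, and with STAR and the mm10 build named in the submitters' processing notes. The sources used here do not name the gene annotation. Cells with fewer than 200 genes or over 20% mitochondrial UMIs were left out, and doublets scored on simulated pairs (205 splenectomy and 305 sham cells) were removed. A class needed 3 markers and a score 1.25 times the next. UMIs were summed per class and library and divided by the class total. Ratios carry exact 95% intervals, which cover counting error only, and genes under 50 UMIs in the higher group got none. On simulated counts, 2.5-fold altered genes were recovered in 200 of 200 cases in neutrophil-like cells, 199 in monocyte-like and 200 in macrophage-like cells. Of unaltered genes, 71 of 5729, 43 of 8974 and 78 of 8392 passed the fold for a call in these classes. Only 2.5-fold changes were simulated, so this gives no recovery rate for the smaller ratios between the libraries. Named genes were the 3 highest and 3 lowest ratios between libraries with at least 100 UMIs, the 5 highest and 5 lowest between classes, the 2 most abundant of each complex and the mtDNA genes; tissue isoforms and pathway genes were named after their values had been seen. Members and lists were chosen with earlier results of these data known. Alternatives changed the mitochondrial limit, depth, doublets, classes, UMI total, weighting, members and thresholds. Promoter windows came from RefSeq (GRCm38.p6). Tools were scanpy 1.11.5, leidenalg 0.10.2, scipy 1.17.1 and Python 3.11.15.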

Additional observations from a re-analysis of the deposited data

Results flagged for a closer look

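Barcodes left out for having over 20% mitochondrial UMIs held 4.31% of all UMIs of the mtDNA set in the splenectomy library and 1.92% in the sham library, a signal outside the cells that were compared. They were 56 splenectomy and 38 sham barcodes with medians of 1206.5 and 1192 UMIs, and 27 and 13 of them had no class. The 12 cardiomyocyte markers summed to 21143 CPM in those of the splenectomy library and 5834 in those of the sham library, against 53.9 and 57.1 in the cells kept. Their part in the mtDNA set was not tested.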

How the results depend on the processing

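Values here are log2 ratios. Without the mitochondrial limit the mtDNA set, splenectomy over sham, turned to -0.069 in neutrophil-like cells and was 0.35 in macrophage-like cells, and macrophage-like over neutrophil-like it was 3.57 in splenectomy and 3.16 in sham. Divided by UMIs of nuclear genes only, monocyte-like cells had -0.048 for the nuclear and 0.33 for the mtDNA set, and macrophage-like over neutrophil-like the nuclear set had 1.74 in splenectomy and 1.71 in sham and the mtDNA set 3.54 and 3.31. With the 20 most abundant nuclear genes left out of the total, neutrophil-like cells had -0.075 (nuclear) and 0.12 (mtDNA), and the distance between the classes was 1.34 and 1.36 (nuclear) and 3.14 and 2.96 (mtDNA). With doublets kept, monocyte-like cells had -0.044 for the nuclear set, the mtDNA set had 0.31 in macrophage-like, 0.34 in monocyte-like and 0.22 in neutrophil-like cells, and the distances were 1.63 and 1.63 (nuclear) and 3.16 and 3.07 (mtDNA). In cells with at least 2000 UMIs the mtDNA distances were 3.54 and 3.33. With equal weight of cells, the nuclear set had -0.085 in macrophage-like cells and distances of 1.53 and 1.51, and the mtDNA set 0.049 in neutrophil-like cells, 0.29 in monocyte-like cells and a distance of 3.56 in splenectomy.

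With classes from clustering, the mtDNA set had 0.29 in macrophage-like, 0.34 in monocyte-like and 0.16 in neutrophil-like cells, with distances of 3.46 and 3.33, and the nuclear distance was 1.70 in sham. Under a stricter marker limit the nuclear set had -0.042 in monocyte-like and -0.061 in macrophage-like cells and a distance of 1.65 in sham, and the mtDNA set 0.33 and 0.22 with distances of 3.62 and 3.50. As medians over genes, the nuclear set had -0.15 in neutrophil-like cells and distances of 2.22 and 2.01, and the mtDNA set 0.28 in macrophage-like, 0.34 in monocyte-like and 0.0026 in neutrophil-like cells with distances of 3.71 and 3.39. Without cells that had a cardiomyocyte marker UMI, an alternative chosen after seeing the data, the nuclear set had -0.048 in monocyte-like and -0.14 in macrophage-like cells and a distance of 1.74 in sham, and the mtDNA set 0.31 and 0.43 with distances of 3.33 and 3.0. The turned sign in neutrophil-like cells rests on 2 sham barcodes over the limit, which hold 2116 mtDNA UMIs. The causes of the other changes were not tested.

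For counts of nuclear genes past the fold, at least 20 counts gave 2 lower in neutrophil-like and 1 higher in macrophage-like cells, and at least 200 counts gave 0 lower in neutrophil-like and 0 higher in monocyte-like cells. The lower fold threshold that was tried gave 2 higher and 12 lower in neutrophil-like, 2 lower in monocyte-like, and 1 higher and 2 lower in macrophage-like cells. A 2-fold threshold gave 0 lower in neutrophil-like, 0 higher in monocyte-like and 0 lower in macrophage-like cells. Outside the mtDNA set of neutrophil-like cells, none of these settings turned the sign of a set's ratio in the 3 large classes. Within groups of cells by depth, the nuclear ratio of the shallowest macrophage-like cells did turn, to 0.04. No paired analysis was possible because each group has 1 library. Counting intervals are narrow at this depth and hold no spread between animals.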
